A study of Mus musculus with 12 samples.

Results

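Goblet cell genes were measured in a sort of type 3 innate lymphoid cells (ILC3s), lymphocytes of the gut wall that carry no antigen receptor. The 7 genes listed were Muc2, Tff3, Zg16, Spink4, Agr2, Fcgbp and Spdef, and they were taken by name from the table of expression levels of 23284 genes. Of these, 6 were measured and all 6 passed the filter on low levels, which kept the 12502 genes that 3 or more of the 12 libraries held at a level of 1 or above. Muc2, the gel-forming mucin of the intestine, was not analysed here.

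Goblet cells are secretory cells of the intestinal epithelium that pack mucus into granules and release it onto the gut surface. Their differentiation from crypt progenitors runs through the transcription factor Atoh1 and, later, Spdef. Beside mucins they secrete trefoil factors, lectins, protease inhibitors and mucin-binding proteins. They are not lymphocytes, so their transcripts were read here in libraries labelled as another cell type.

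The mice were of the HR-1 strain, hairless but with an intact immune system, and were 18 weeks old when the cells were taken. In the PA milk groups the pups were born to mothers on normal chow and swapped after birth to other mothers. These nursing mothers ate chow with added palmitic acid (PA), a long-chain saturated fatty acid. The pups ate normal chow from weaning on. In the ND (normal diet) groups the nursing mothers ate unsupplemented chow, and all 4 groups carried the same strain background with no transgene. The study describes no swap for the ND groups, so swapping and PA milk cannot be told apart here. ILC3s were sorted from the intraepithelial layer (IEL) and from the lamina propria (LP) of the small intestine, giving 3 libraries in each of 4 groups. The sort took lineage-negative, Thy1.2+, CD25+ and Nrp1+ cells, with CD4 or CD45 as the further positive marker depending on the place in the study's text. Neither the labels nor the methods tell whether a library came from 1 mouse or several, nor whether an IEL and an LP library with the same number came from the same mouse, so p-values measure the spread between these libraries, which may be technical in part.

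The levels are FPKM, fragments per kilobase of transcript scaled to the mapped fragments of the library, so that levels of different genes can be set side by side. Read totals recovered from the deposited values lay between 8757955 and 14594803 per library. The number of genes at 1 FPKM or more was 4390 in PA IEL replicate 2, 5637 in PA LP replicate 2 and 7863 in ND IEL replicate 2, against 8406 to 11378 in the other libraries. By this measure over all genes, PA IEL replicate 2 and PA LP replicate 2 stood apart. ND IEL replicate 2, at 7863, was nearer to the next library, PA LP replicate 1, at 8406. Where leaving out 1 of these libraries moved a comparison of the goblet genes most, its value without that library is given. The labelled cell type was also checked against a list of 15 ILC3 and sort markers. Their summed level ran from 108 FPKM in PA LP replicate 2 to 5364 FPKM in ND LP replicate 2. Of the 15, 0 were listed at 0 in ND IEL replicate 3 and 8 in ND IEL replicate 2, the 2 ends of the range. Among these markers Thy1, the gene of a marker in the sort gate, was listed at 0 in 5 libraries.

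The 6 genes lie on 4 chromosomes of the mouse build GRCm38 (mm10), and GENCODE vM21 annotates each as protein coding. Tff3 (ENSMUSG00000024029.4) is at chr17:31125306-31129646 and Spdef (ENSMUSG00000024215.14) at chr17:27714352-27728955, both on the minus strand. Zg16 (ENSMUSG00000049350.6) is at chr7:127050156-127087328 on the minus strand and Fcgbp (ENSMUSG00000047730.17) at chr7:28071236-28120862 on the plus strand. Spink4 (ENSMUSG00000028415.4) is at chr4:40920052-40931395 and Agr2 (ENSMUSG00000020581.11) at chr12:35992907-36004087, both on the plus strand. Each level is a sum over the whole gene.

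Promoter sequence is shown for the genes with an entry in the RefSeq promoter table of build GRCm38.p6, which were 3 of the 6 (Agr2, Fcgbp and Spdef). It shows the start regions of genes whose levels varied together across the libraries, with the factor Spdef among them. Each window runs from 250 bases before the transcription start to 50 bases after it, and reads 5′ to 3′ along the gene. Capitals mark GGAT or its reverse complement ATCC, the core of the sequence that Ets factors of the Spdef kind bind. The windows are chr12:35992675-35992974 on the plus strand for Agr2, chr7:28070986-28071285 on the plus strand for Fcgbp and chr17:27728902-27729201 on the minus strand for Spdef.
Agr2: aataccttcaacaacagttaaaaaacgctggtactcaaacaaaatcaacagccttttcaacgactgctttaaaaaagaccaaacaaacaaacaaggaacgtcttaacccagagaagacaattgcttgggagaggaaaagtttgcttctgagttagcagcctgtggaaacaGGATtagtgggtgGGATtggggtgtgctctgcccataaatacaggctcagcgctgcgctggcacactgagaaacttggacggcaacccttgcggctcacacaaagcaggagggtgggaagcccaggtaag
Fcgbp: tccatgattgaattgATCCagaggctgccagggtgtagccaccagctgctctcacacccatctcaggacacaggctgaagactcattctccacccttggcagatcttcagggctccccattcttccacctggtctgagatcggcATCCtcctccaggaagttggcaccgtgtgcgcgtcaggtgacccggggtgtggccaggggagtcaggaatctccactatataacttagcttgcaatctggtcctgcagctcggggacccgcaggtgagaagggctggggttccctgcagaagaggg
Spdef: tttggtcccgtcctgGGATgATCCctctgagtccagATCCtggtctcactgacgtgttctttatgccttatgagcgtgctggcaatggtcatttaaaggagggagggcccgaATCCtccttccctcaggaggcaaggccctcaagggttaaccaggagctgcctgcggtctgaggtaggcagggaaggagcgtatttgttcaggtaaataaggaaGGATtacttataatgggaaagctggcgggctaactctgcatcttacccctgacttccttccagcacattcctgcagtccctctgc

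The Agr2 window held 2 GGAT cores, at 80 and 67 bases before the start, the Fcgbp window held 2 and the Spdef window held 5. On either strand this core is present in 79.6% of the 32851 mouse promoter windows of the same length, so its presence alone does not set these genes apart. The letters CACCC, read by Krüppel-like factors such as Klf4, occurred 3 times in Agr2, 4 times in Fcgbp and 0 times in Spdef, and in 57.5% of all windows. The letters TTTATG, read by the intestinal Cdx factors, occurred once in the Agr2 window and once in the Spdef window, and in 11.9% of all windows. Both strands were also searched for a TATA box (TATAAA, in 13.6% of all windows), for the letters of forkhead factors such as Foxa3 (TGTTTAC, in 3.65%), for the E-box read by Atoh1 (CAGATG, in 17.2%) and for part of the stress element read by Xbp1 and Atf6 (CCACG, in 32.8%), and each had 0 matches in these windows. A further E-box, CAGCTG, which 16.3% of all windows hold, was found 1 time, in Fcgbp. A match of letters is a description of the window and shows no binding.

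Across the groups, all 6 genes had their highest mean level in LP cells of ND mice and their next highest in IEL cells of ND mice, on the log2(FPKM + 1) scale used for the tests. The PA milk groups came last for every gene, and the order of these 2 was not settled. PA LP was above PA IEL for 5 genes, and for Zg16 PA IEL was above PA LP on the log2 scale but below it in mean FPKM (53.9 against 110.5). Within a group the libraries differed by a large factor. The between-library SD of a gene's log2 level in a group ran up to 5.29 (Spink4 in PA LP). Of the neighbours in this order, ND LP and ND IEL, and likewise the 2 PA milk groups, did not differ past the threshold for any gene, as given with the layers, and ND IEL and PA LP, which differ in both diet and layer, were not compared. In bulk libraries, fewer cells of a type and less RNA per cell cannot be told apart.

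**Figure D1:**
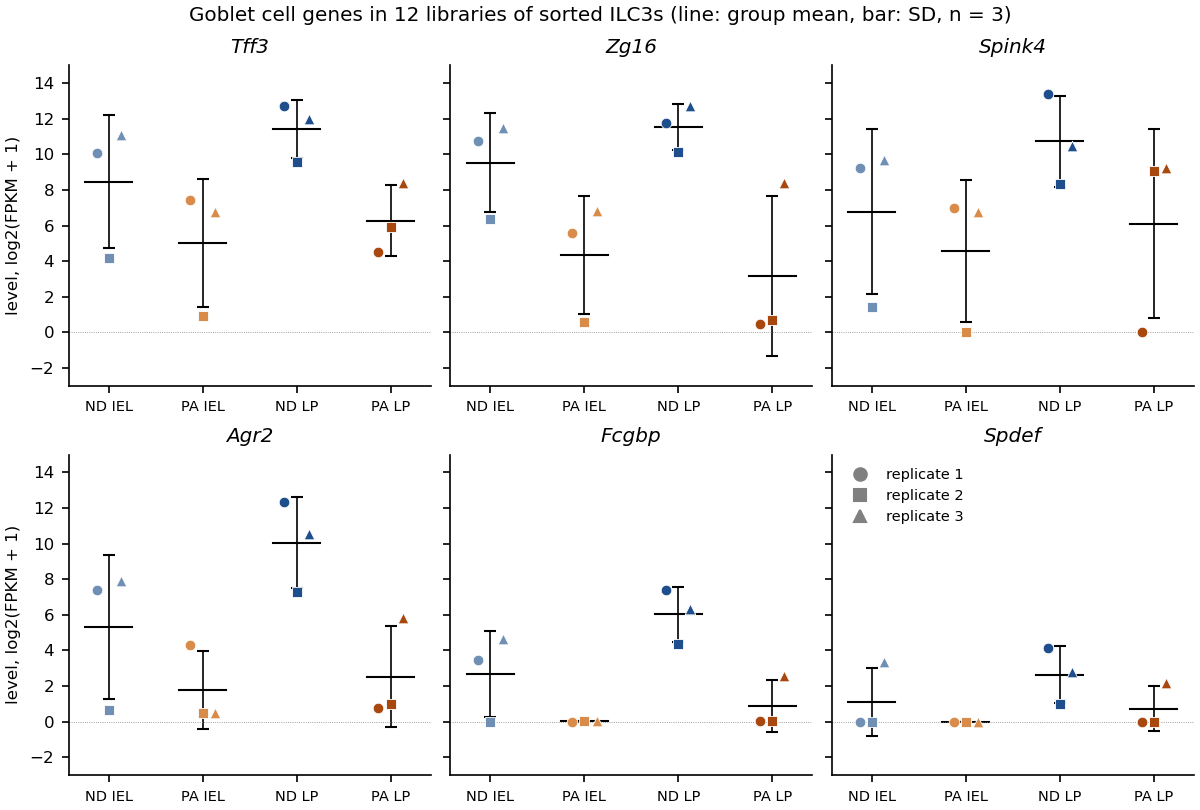
Level of each goblet cell gene in each of the 12 libraries, in FPKM on a log2(FPKM + 1) axis (y), by group (x). Points are libraries, and the bar and whiskers are the group mean and SD of the 3 libraries on that scale. In LP the 3 ND points of Tff3, Zg16, Agr2 and Fcgbp lie above all 3 PA milk points, and in IEL the ND and PA milk points overlap for every gene.

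Tff3 encodes trefoil factor 3, a small secreted peptide that acts with mucus in epithelial repair. In LP its levels were 6695, 773 and 3989 FPKM in ND replicates 1 to 3 and 21.5, 58.7 and 341 FPKM in PA milk replicates 1 to 3. In IEL they were 1070, 17.2 and 2208 FPKM in ND and 173, 0.874 and 106 FPKM in PA milk. The groups did not overlap in LP, and in IEL ND replicate 2 lay below 2 PA milk libraries. The value in PA IEL replicate 2 rests on about 3 reads.

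Zg16 encodes zymogen granule protein 16, a lectin of the mucus layer that binds Gram-positive bacteria. In LP its levels were 3418, 1141 and 6747 FPKM in ND and 0.364, 0.639 and 331 FPKM in PA milk. In IEL they were 1721, 82.5 and 2870 FPKM in ND and 47.8, 0.510 and 113 FPKM in PA milk. PA LP replicates 1 and 2 held about 2 and 3 reads of it, while every ND LP library was above 1000 FPKM. In IEL only PA milk replicate 3 reached into the range of the ND libraries.

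Spink4 encodes a Kazal-type serine protease inhibitor of goblet cells. In LP its levels were 10877, 319 and 1411 FPKM in ND and 0, 543 and 601 FPKM in PA milk. In IEL they were 599, 1.69 and 835 FPKM in ND and 128, 0 and 109 FPKM in PA milk. The groups overlapped in both layers, and 2 of the 3 PA LP libraries, replicates 2 and 3, lay above ND LP replicate 2. It was listed at 0 in PA LP replicate 1 and in PA IEL replicate 2.

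Fcgbp encodes the IgG Fc binding protein, a large mucus protein that is secreted with the mucin. In LP its levels were 166, 19.5 and 80.2 FPKM in ND and 0.0101, 0.0354 and 4.88 FPKM in PA milk. In IEL they were 10.1, 0 and 23.6 FPKM in ND and 0, 0.00942 and 0.0204 FPKM in PA milk. The gene was near the detection limit in every library outside ND LP except ND IEL replicates 1 and 3 and PA LP replicate 3, and the 3 PA IEL libraries together held about 3 reads of it.

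Agr2 encodes a disulfide isomerase of the endoplasmic reticulum that goblet cells need to make Muc2. In LP its levels were 5144, 153 and 1502 FPKM in ND and 0.705, 0.991 and 55.2 FPKM in PA milk. In IEL they were 168, 0.565 and 241 FPKM in ND and 18.7, 0.396 and 0.429 FPKM in PA milk. All ND LP libraries lay above all PA LP libraries, and in IEL the low ND library, replicate 2, lay among the PA milk libraries. Among the ND LP libraries, replicate 2 was the lowest and replicate 1 the highest, as for Tff3, Spink4, Fcgbp and Spdef.

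Spdef encodes the Ets factor that drives goblet and Paneth cell maturation, and it was the lowest of the 6 genes. In LP its levels were 17.0, 0.976 and 5.96 FPKM in ND and 0, 0 and 3.51 FPKM in PA milk. In IEL it was at 9.08 FPKM in ND replicate 3 and listed at 0 in the other 5 libraries. Thus 7 of the 12 libraries had no read of it, and the LP groups overlapped because PA milk replicate 3 exceeded ND replicate 2.

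The first comparison asked how PA milk and ND libraries differed in LP. All 6 genes had lower mean levels in PA milk, with a median log2 fold change (PA milk minus ND) of -5.15, in a comparison where 62.2% of all genes tested were lower and the median over all genes was -0.36. Relative to that median the goblet genes stood at -4.79, and at -4.71 to -4.86 when the libraries were scaled by leukocyte genes or by the upper quartile. The log2 fold change was -8.36 ± 1.92 (SE) for Zg16, -7.53 ± 1.92 for Agr2, -5.15 ± 1.73 for Tff3 and -5.15 ± 1.36 for Fcgbp. It was -4.62 ± 2.52 for Spink4 and -1.92 ± 1.06 for Spdef. These changes are on the log2(FPKM + 1) scale, which understates the change of low genes such as Spdef and Fcgbp. Agr2, Fcgbp and Spdef reached 1 FPKM in fewer than 3 PA milk libraries of both layers together, so they passed the filter only with ND libraries. For these genes the filter itself favoured a lower level in PA milk, here and in IEL.

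None of the 6 passed the threshold of 0.05 after Benjamini-Hochberg adjustment in limma over all 12502 genes, and no other gene did in this comparison (0% called), where 588 genes had an unadjusted p under 0.05 and limma's voom on recovered reads called 5 genes, no goblet gene among them. The adjusted p was 0.521 for Zg16, 0.650 for Agr2, 0.735 for Fcgbp and 0.979 for Tff3, Spink4 and Spdef. The unadjusted limma p was under 0.05 and the level lower in PA milk for 4 of the 6 (Zg16, Agr2, Fcgbp and Tff3), against 4.04% of all genes tested. Of these, Agr2 and Fcgbp passed the filter only with ND libraries. The same 4 genes had every PA LP library below every ND LP library, against 6.6% of all genes, and for each the exact permutation test gave a two-sided p of 0.1, the smallest that 3 libraries against 3 allow. With PA LP replicate 3 left out the Zg16 change was -10.96 and passed the threshold (limma adjusted p = 0.027), while over all the alternatives its adjusted p ran from 0.027 to 1.0. With PA LP replicate 1 left out the Spink4 change was -1.57, since that library alone listed the gene at 0. With the 2 libraries of fewest genes left out, the same 4 genes did not overlap (10.3% of all genes), and with ND LP replicate 2 left out all 6 did not (10.4%). Without PA LP replicate 3 it was 5, with Spdef added (19.0%).

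As ratios of mean FPKM, ND LP libraries held 120 times as much Agr2 as PA LP libraries, 54.0 times as much Fcgbp, 34.1 times as much Zg16, 27.2 times as much Tff3, 11.0 times as much Spink4 and 6.81 times as much Spdef. These ratios lean on the highest library of each group. PA LP replicate 3 held most of what the PA LP group had of Zg16, Agr2, Fcgbp and Spdef, and it was the only PA LP library with more than 10 reads of Zg16, Agr2 or Fcgbp.

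In IEL the 6 genes also had lower mean levels in PA milk, with a median log2 fold change of -3.05 (-3.49 with Spdef set to its bound), where 60.5% of all genes were lower and the median over all genes was -0.30. Relative to all genes they stood at -2.75 under each of the 3 scalings. The log2 fold change was -5.19 ± 1.92 for Zg16, -3.56 ± 1.92 for Agr2, -3.42 ± 1.73 for Tff3, -2.68 ± 1.36 for Fcgbp, -2.19 ± 2.52 for Spink4 and -1.11 ± 1.06 for Spdef. Spdef was at 0 in all PA IEL libraries, and its mean in ND IEL was at least 19.3-fold higher, taking 3 reads per library as the floor (0.157 FPKM). That ND mean came from replicate 3 alone, with replicates 1 and 2 also listed at 0. The bound is a ratio of mean FPKM and not a change in log2(FPKM + 1). A median with Spdef set to its bound therefore mixes both scales, here and between the layers under PA milk. For Fcgbp the ratio of means was 1128 with a counting interval of 386 to 5472 (95%, from 3 reads in the PA IEL group), which covers counting error only, and its ND mean came from replicates 1 and 3, with replicate 2 listed at 0.

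None of the 6 passed the threshold in IEL (limma adjusted p = 0.947 for Tff3, Zg16, Agr2, Fcgbp and Spdef and 0.955 for Spink4), nor did any other gene (0% called, also by voom), where 447 genes had an unadjusted p under 0.05. The unadjusted p was under 0.05 for 1 of the 6, Zg16, against 2.82% of all genes tested lower in PA milk. No gene had groups that did not overlap, against 5.22% of all genes tested. Here 1 library decided the overlap, since without ND IEL replicate 2 the PA milk libraries lay below the ND libraries for 5 of the 6, all but Spdef (12.7% of all genes). Without PA IEL replicate 1 this held for Agr2 alone (13.1%), without PA IEL replicate 3 for Zg16 alone (16.4%), and without PA IEL replicate 2 for 0 of the 6 (7.34%). Without ND IEL replicate 2 the Tff3 change was -5.56, against -1.36 without PA IEL replicate 2. The Spink4 change was 0.11 without PA IEL replicate 2, and the Spdef change was 0.00 without ND IEL replicate 3, so the direction of these 2 genes rests on those libraries.

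**Figure D2:**
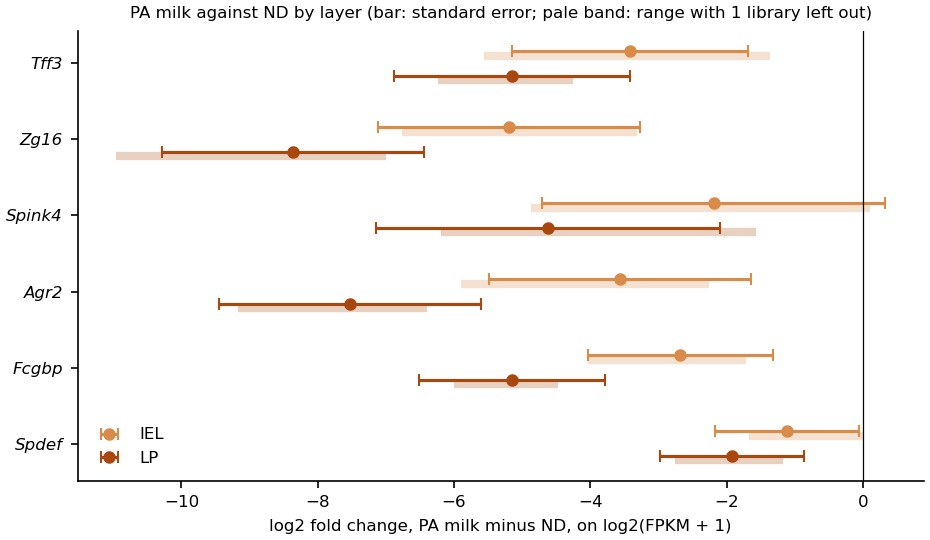
Log2 fold change of each goblet cell gene between PA milk and ND (x, PA milk minus ND on the log2(FPKM + 1) scale; negative is lower in PA milk) in IEL and in LP. Points are the limma estimates and bars their SE, and the pale bands are the range of the estimate with 1 library left out in turn. All 12 estimates are negative, and the LP estimate is the more negative one for each gene, from -1.92 for Spdef to -8.36 for Zg16.

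The change with milk was more negative in LP than in IEL for each of the 6 genes, but the difference between the layers did not pass the threshold for any of them. It was -3.97 ± 2.71 for Agr2, -3.17 ± 2.71 for Zg16, -2.47 ± 1.92 for Fcgbp, -2.44 ± 3.56 for Spink4, -1.73 ± 2.45 for Tff3 and -0.81 ± 1.5 for Spdef (log2, LP minus IEL). The limma interaction term gave an adjusted p of 1.0 for each, with 50.8% of all genes tested on the lower side and 0% called, and no goblet gene had an unadjusted p under 0.05 (1.42% of all genes lower). Without ND IEL replicate 2 the difference was 0.40 for Tff3 and 0.24 for Spink4. Without PA LP replicate 1 it was 0.62 for Spink4.

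The second kind of comparison set the layers against each other within a diet. Under ND all 6 genes had lower mean levels in IEL than in LP, against 53.6% of all genes, with a median log2 difference (IEL minus LP) of -3.15, where that over all genes was -0.09. It was -4.73 ± 1.92 for Agr2, -3.95 ± 2.52 for Spink4, -3.33 ± 1.36 for Fcgbp, -2.97 ± 1.73 for Tff3, -2.0 ± 1.92 for Zg16 and -1.54 ± 1.06 for Spdef. In means of FPKM, LP held 16.6 times as much Agr2 as IEL but 2.42 times as much Zg16. None passed the threshold (limma adjusted p from 0.609 for Agr2 to 1.0 for Zg16; 0.024% of all genes called lower), 2 of the 6, Agr2 and Fcgbp, had an unadjusted p under 0.05 (3.64% of all genes tested), and the groups overlapped for all 6 (9.34% of all genes had IEL below LP without overlap). These values leaned on ND IEL replicate 2. Without it the median was -1.12, and the difference was -2.39 for Agr2, -1.98 for Fcgbp, -1.26 for Spink4, -0.98 for Spdef, -0.84 for Tff3 and -0.42 for Zg16.

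Under PA milk the layers lay closer together for these genes, with a median log2 difference of -0.81 (-1.05 with Spdef set to its bound) and 5 of the 6 lower in IEL, against 51.1% of all genes. The exception was Zg16, at 1.17 ± 1.92, and the others ran from -1.51 ± 2.52 for Spink4 to -0.72 ± 1.06 for Spdef. None passed the threshold (limma; 0.056% of all genes called lower) none had an unadjusted p under 0.05 (5.7%) and none had groups without overlap (4.51%). The sign rested on single libraries for all but Fcgbp, which stayed between -1.29 and -0.02 with 1 library left out. Without PA IEL replicate 2 the difference was 0.82 for Tff3 and 0.79 for Spink4, and the Zg16 difference was -0.08 without PA IEL replicate 3, -0.20 without PA LP replicate 1 and -0.06 without PA LP replicate 2. Without PA LP replicate 3 it was 0.88 for Agr2, 0.06 for Spink4 and 0.00 for Spdef.

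The summed level of the 6 genes gave the same order of groups. It was 26317, 2408 and 13736 FPKM in ND LP and 3568, 102 and 6186 FPKM in ND IEL. PA LP libraries had sums of 22.6, 604 and 1336 FPKM, while those of PA IEL were 367, 1.79 and 330 FPKM. Every ND LP library exceeded every PA milk library of either layer, whereas ND IEL replicate 2 lay below 2 of the 3 PA IEL libraries.

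The make-up of that sum was alike in most ND libraries but not in all, and it also varied under PA milk. Zg16 made up 46.4% to 49.1% of it in ND IEL replicates 1 and 3 and ND LP replicates 2 and 3, with Tff3 next at 29.0% to 35.7%. In ND IEL replicate 2 Zg16 made up 81.0%, Tff3 16.8% and Spink4 1.65%. In ND LP replicate 1, the library with the highest sum, Spink4 led with 41.3%, and Agr2 reached 19.5%. In PA LP replicate 1 Tff3 made up 95.2%, in PA LP replicate 2 Spink4 made up 90.0%, and PA LP replicate 3 held 45% Spink4, 25.5% Tff3 and 24.7% Zg16. Fcgbp and Spdef never exceeded 0.808% and 0.263%. The shares in PA IEL replicate 2 come from at most 3 reads of each gene, and the Tff3 share in PA LP replicate 1 rests on about 69 reads.

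**Figure D3:**
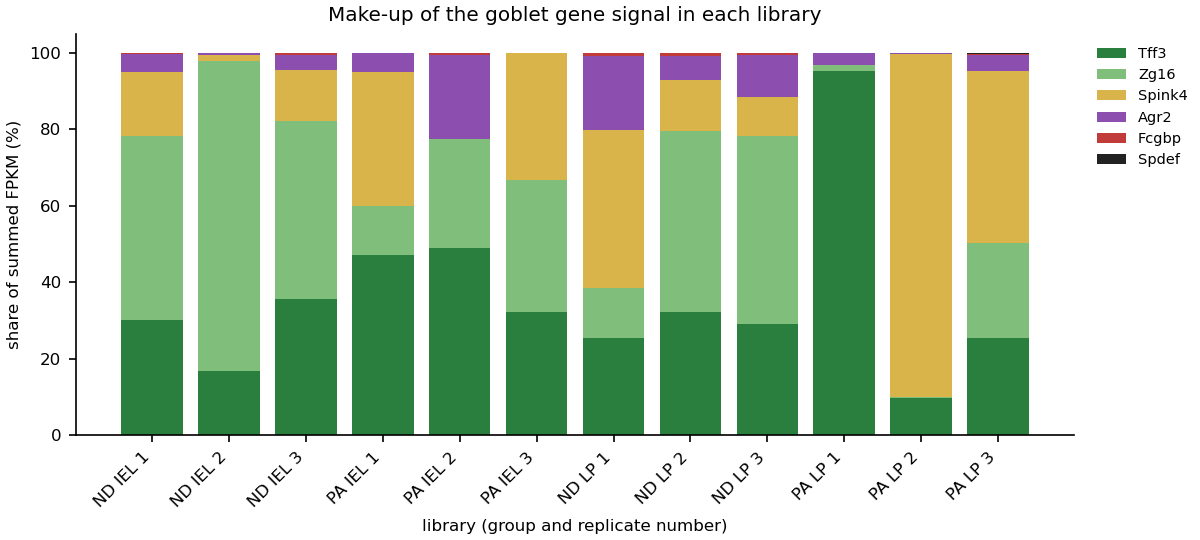
Share of the summed FPKM of the 6 goblet cell genes taken by each gene (y, percent) in each of the 12 libraries (x). Zg16 and Tff3 lead in most ND libraries, while Tff3 makes up 95.2% of PA LP replicate 1 and Spink4 90.0% of PA LP replicate 2.

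Across the 12 libraries the 6 genes followed each other. Pearson's r between 2 of them on the log2(FPKM + 1) scale ran from 0.68 (Spink4 and Spdef) to 0.97 (Agr2 and Fcgbp), with a median of 0.85 over 15 pairs. Of the other 12501 genes tested, Fcgbp was the one most like Agr2. These values are a description: the points share libraries and groups, and libraries with few detected genes were low in most of these genes.

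The gene most like the mean profile of the 6 was Clca3 (r = 0.957, 12 libraries), the older symbol of the goblet cell gene gob-5 that RefSeq now lists as Clca1. It stood at 381, 28.5 and 258 FPKM in ND LP, at 0, 0 and 8.95 FPKM in PA LP, at 56.0, 0.0572 and 105 FPKM in ND IEL and at 18.2, 0.0267 and 7.49 FPKM in PA IEL. The next was Clps (r = 0.947), which encodes pancreatic colipase, with 126, 13.2 and 72.4 FPKM in ND LP. The other 8 of the 10 most alike were Slc38a9, Ccdc111, Ppm1k, Slc7a4, Atf4, Rmi1, Phyhd1 and Suox, with r from 0.911 to 0.941. Slc38a9 stayed under 3 FPKM in every library, whereas Atf4, a stress response factor, was above 100 FPKM in all 12.

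Other goblet cell genes were read from 4 lists holding 58 genes with a row, of which 49 were tested. In LP 38 of the 49 had lower mean levels in PA milk and 10 higher, with a median log2 fold change of -1.33, and in IEL 36 were lower and 13 higher, with a median of -0.81. Of all genes tested, 62.2% were lower in LP and 60.5% in IEL. None of the 49 passed the threshold in limma in either layer. The unadjusted p was under 0.05 for 10 lower (4.04% of all genes) and 1 higher in LP and for 3 lower (2.82% of all genes) and 0 higher in IEL. Among those lower in LP, Atoh1, Foxa3, Gcnt3 and Capn9 reached 1 FPKM only in ND libraries and passed the filter only through these.

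Among the 8 other secreted or surface products tested, 7 were lower in PA milk in LP (median -2.29). Clca3 had a log2 fold change of -6.05 ± 1.75 in LP (limma adjusted p = 0.979) and -1.75 ± 1.75 in IEL. Guca2a, which encodes guanylin, a secreted peptide of goblet cells and enterocytes, stood at 7099, 231 and 1000 FPKM in ND LP and at 0.442, 100 and 137 FPKM in PA LP, with a change of -5.44 ± 1.94. In IEL it was at 738, 2591 and 910 FPKM in ND and 266, 0.620 and 637 FPKM in PA milk (-4.21 ± 1.94). Unlike the 6 genes, Guca2a was highest among IEL libraries in ND replicate 2. Retnlb, a goblet cell antimicrobial protein, reached 3755 FPKM in ND LP replicate 1 but 0.808 and 29.4 FPKM in the other 2 ND LP libraries, and its changes were -2.37 ± 2.48 in LP and -2.20 ± 2.48 in IEL. Muc13, a transmembrane mucin, was at 198, 412 and 221 FPKM in ND IEL and 107, 55.9 and 79.7 FPKM in ND LP, and its changes with milk were -2.30 ± 1.12 in IEL and -1.28 ± 1.12 in LP. The gene listed as Clca1, which RefSeq now names Clca3a1, is not gob-5. It is counted among these 8 and among the 49 other goblet genes by its listed symbol only. Its levels did not follow them, with 147, 0 and 47.0 FPKM in PA LP and 10.5, 26.7 and 7.35 FPKM in ND LP.

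All 8 transcription factors of secretory cells that were tested had lower mean levels in PA LP than in ND LP (median -1.98). Of all genes tested, 62.2% were lower. Atoh1, Foxa1 and Foxa3 reached 1 FPKM only in ND libraries, so the filter itself favoured a lower level in PA milk for them. Atoh1, which opens the secretory lineage, stood at 66.3, 0 and 36.7 FPKM in ND LP and was listed at 0 in all 6 PA milk libraries (LP change -3.77 ± 1.19, limma adjusted p = 0.979). Foxa3 stood at 70.0, 0 and 7.78 FPKM in ND LP against 0, 0.0498 and 0 FPKM in PA LP (-3.07 ± 1.18). Creb3l1, a membrane-bound factor of secretory cells, had changes of -2.65 ± 0.99 in IEL and -2.21 ± 0.99 in LP and was listed at 0 in all PA IEL libraries. Xbp1, a factor of the unfolded protein response that plasma cells also express strongly, was between 269 and 1274 FPKM in 11 libraries and at 0.286 FPKM in PA LP replicate 2.

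Of the 18 genes of mucin folding and glycosylation, 14 were lower in LP (median -0.72) and 11 lower in IEL (median -0.69), the IEL count being near the share over all genes. Gcnt3, which makes the branched core of mucin sugars, stood at 18.8, 4.18 and 7.34 FPKM in ND LP and 0.228, 0 and 0.581 FPKM in PA LP (-2.93 ± 0.80, limma adjusted p = 0.831). Galnt3, which starts mucin O-glycosylation, had log2 fold changes of -3.45 ± 1.21 in LP and 0.23 ± 1.21 in IEL, and C1galt1c1, the chaperone of the core enzyme, had -3.94 ± 1.60 in LP and -3.33 ± 1.60 in IEL. Gcnt1, another branching enzyme, had -1.85 ± 1.14 in LP and -2.6 ± 1.14 in IEL, and the sialyltransferase gene St3gal6 had -1.91 ± 1.49 and -2.34 ± 1.49. The core enzyme gene B3gnt6 had 1.79 ± 1.22 in LP and -1.13 ± 1.22 in IEL, Galnt12 had -0.77 ± 1.35 and -2.13 ± 1.35, and the isomerase gene Pdia5 had 0.97 ± 1.32 and 0.20 ± 1.32. The general chaperones Hspa5 and Pdia6, which all cells use, had LP values of -0.44 ± 0.42 and -0.37 ± 0.47. Of the 15 genes of granule release and related functions, 9 were lower in LP (median -0.77), also near the share over all genes. Rep15, a Rab effector, stood at 292, 9.99 and 47.6 FPKM in ND LP and 0, 0 and 0.827 FPKM in PA LP (-5.46 ± 1.63), whereas the LP value was 0.45 ± 0.57 for Vamp8, a SNARE protein of many cell types, and 1.66 ± 0.73 for Sytl4, a granule protein listed at 0 in all ND LP libraries. Of the further genes of this list, Capn9, a protease of gut epithelium, had -2.26 ± 0.97 in LP, and Tspan8, a tetraspanin, had -1.44 ± 1.26 in LP and -2.61 ± 1.26 in IEL. The potassium channel gene Kcnn4 had 2.15 ± 1.37 in LP and -1.62 ± 1.37 in IEL, and Tmem9b had 1.11 ± 1.25 and -2.22 ± 1.25, so these genes did not share the LP direction of the 6. Bace2 had -0.77 ± 1.15 in LP and 0.50 ± 1.15 in IEL, and the water channel gene Aqp3 had 0.20 ± 1.33 and 0.49 ± 1.33.

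Markers of other cell types moved with the goblet genes in part, and their part in the results was not tested. None of the enterocyte or pan-epithelial markers was listed at 0 throughout a group. All 12 absorptive enterocyte markers were tested, and their summed level was 15640 to 92450 FPKM in ND IEL, 4506 to 56145 FPKM in PA IEL, 166 to 2993 FPKM in ND LP and 49.97 to 580 FPKM in PA LP. They were higher in IEL than in LP, with no overlap, for 12 of 12 under ND (median 4.73; 9.95% of all genes tested), which is the opposite order of layers from the goblet genes. With milk, 12 of 12 were lower in PA LP (median -1.42) and 11 of 12 in PA IEL (median -1.43). The highest enterocyte sum of all libraries, in ND IEL replicate 2, stood beside the lowest goblet sum of the ND libraries, 102 FPKM.

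The 12 markers of all intestinal epithelial cells summed to 2448 to 5504 FPKM in ND LP and 349 to 1454 FPKM in PA LP, so these groups did not overlap, and 12 of 12 were lower in PA milk (median -2.08). Their sums were 8463 to 10902 FPKM in ND IEL and 1155 to 10938 FPKM in PA IEL, with 11 of 12 lower (median -1.92). For Paneth cells, the other secretory cell type of the crypt, 8 of 9 markers with a row were tested. Their sum was 739 to 5780 FPKM in ND LP and 387 to 3833 FPKM in PA LP, with 4 lower and 4 higher (median -0.15). In IEL it was 436 to 3685 FPKM in ND and 54.9 to 239 FPKM in PA milk, with 8 of 8 lower (median -3.50). Ang4, Defa22 and Mmp7 were listed at 0 in all 3 PA IEL libraries. Defa21, the marker not tested, was listed at 0 in every library of all groups. The summed goblet level of all 3 PA LP libraries lay below that of every ND LP library, while the Paneth sums of PA LP replicates 2 and 3, at 3452 and 3833 FPKM, lay within the ND LP range.

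The 15 ILC3 and sort markers summed to 974.7 to 5364 FPKM in ND LP and 108 to 598 FPKM in PA LP, without overlap, and 13 of 15 were lower in PA LP (median -1.68). Of these markers Ncr1 was listed at 0 in all 3 ND LP libraries, and none was in all 3 PA LP libraries. In IEL the sums were 295 to 743 FPKM in ND and 327 to 2400 FPKM in PA milk, with 10 of 15 higher in PA milk (median 0.61). B and plasma cell markers summed to 1154 to 6751 FPKM in ND LP and 11.1 to 7774 FPKM in PA LP, and T cell markers to 136 to 219 FPKM and 23.9 to 187 FPKM. The T cell list includes Cd4, which the study's methods name as a marker of the sort gate. Cd4 held nearly all of that sum in PA LP replicate 2 and in PA IEL replicates 1 and 2. In PA LP 5 of 6 B and plasma cell markers were lower (median -4.08), and 5 of 6 T cell markers (median -2.22). Of all genes tested, 62.2% were lower there. In PA IEL 3 of 6 B and plasma cell markers were lower (median -0.17), and 5 of 6 T cell markers (median -2.2). The summed goblet level exceeded the summed ILC3 marker level in all ND LP libraries but replicate 2, and in PA IEL it was below it in every library. In PA LP the goblet sum was the higher one in replicates 2 and 3 and the lower one in replicate 1. In ND IEL it was the higher one in replicates 1 and 3 and the lower one in replicate 2.

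**Figure D4:**
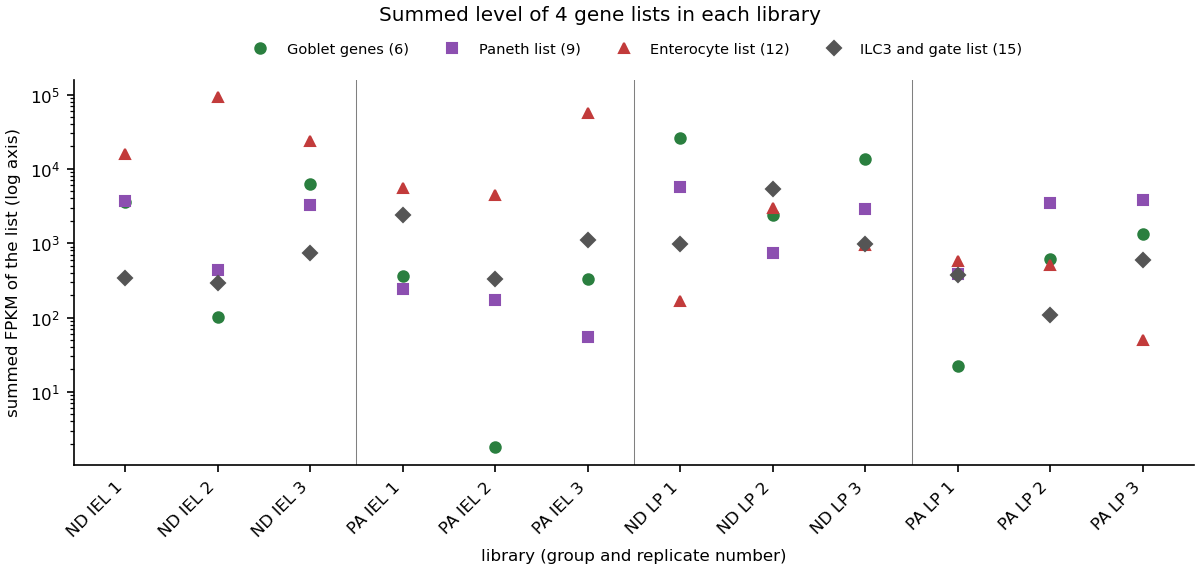
Summed FPKM (y, log axis) of the 6 goblet cell genes and of the enterocyte, Paneth and ILC3 marker lists in each of the 12 libraries (x), by group. The goblet sum runs from 1.79 FPKM in PA IEL replicate 2 to 26317 FPKM in ND LP replicate 1, and the lowest enterocyte sum of the 6 IEL libraries, 4506 FPKM, is above the highest of the 6 LP libraries, 2993 FPKM.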

How the data were processed

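The authors sorted ILC3s from IEL and LP, amplified full-length cDNA with the SMART-Seq v4 kit, which carries no molecular identifiers, and sequenced it. Per the submitters' processing notes the reads were handled with TopHat2 2.1.1, Bowtie2 2.2.8.0, SAMtools 0.1.18, Cufflinks 2.2.1 and Cuffdiff 2.2.1 on mm10. The values used were the deposited FPKM, as the authors computed them per gene. A second deposited table held scaled counts rounded to whole numbers, treated as a signal and used only with FPKM to recover approximate read numbers (90.0% to 99.0% of low values within 0.05 of a whole read), so that planned edgeR was not run and limma's voom on these reads replaced it, chosen after seeing the data. Scaled totals were 9376529 to 11710874 per library. The FPKM of a library do not sum to a fixed total.

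Genes with at least 1 FPKM in at least 3 of 12 libraries were tested with limma 3.58.1 (R 4.3.3) on log2(FPKM + 1), in 1 fit of 4 group means with a mean-variance trend and Benjamini-Hochberg adjustment (threshold 0.05). Single genes were also compared by exact permutation of log2(FPKM + 1), with the difference of group means as the statistic (scipy 1.17.1). The fit was tested on simulated data. The members and lists were chosen with earlier results of these data known. The text names all members, other goblet genes with an unadjusted p under 0.05 in a comparison or at least 100 FPKM in a library, and the 10 genes most like the members' mean profile. Recovered reads give an approximate depth only, and intervals and floors cover counting error only. Alternatives changed the scaling, filter, pseudocount, fold scale, samples in the fit, sample weights, replicate block and each library in turn. The level of 1 ILC3 marker gene is not reported here.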

Additional observations from a re-analysis of the deposited data

How the results depend on the processing

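The direction and side of the threshold of each goblet gene stayed the same under all alternatives run for the layer difference under ND, and the median over the 6 genes kept its sign except under PA milk between layers, where it ran from -1.46 to 0.34 with 1 library left out. With 1 library left out that median ran from -5.21 to -1.91 in IEL, from -6.21 to -4.49 in LP, from -4.20 to -0.69 for the difference between layers and from -4.30 to -1.12 for the layers under ND. Zg16 in LP passed the threshold with the replicate block (-8.36, limma adjusted p = 0.0442) and without PA LP replicate 3 (-10.96), and over its alternatives the adjusted p ran from 0.027 to 1.0. Signs turned in IEL for Spink4 without PA IEL replicate 2, alone or with the other sparse library (0.11 both times), and for Spdef without ND IEL replicate 3 (0.00). With 1 library left out their lowest values there were -4.87 and -1.67. In the difference between layers they turned for Spdef with sample quality weights (0.34), for Tff3 (0.40) and Spink4 (0.24) without ND IEL replicate 2 and for Spink4 without PA LP replicate 1 (0.62), where the lowest values with 1 library left out were -3.79 for Tff3 and -4.74 for Spink4. Between layers under PA milk they turned with sample quality weights for Tff3 (0.49) and Spink4 (1.67), without the 2 sparsest libraries for Tff3 (0.64) and Spink4 (2.28), without PA IEL replicate 2 for Tff3 (0.82) and Spink4 (0.79), without PA LP replicate 3 for Spink4 (0.06), Agr2 (0.88) and Spdef (0.00), and for Zg16 without PA IEL replicate 3 (-0.08), PA LP replicate 1 (-0.20) or PA LP replicate 2 (-0.06) and as a ratio of mean FPKM (-1.02). At the other end, with 1 library left out, stood Tff3 at -2.44, Spink4 at -4.56, Agr2 at -2.03, Spdef at -1.09 and Zg16 at 3.77. Genes called over all genes were 0 for milk in IEL (0 to 1 with 1 library left out). For milk in LP they were 0 in the main analysis, 3 with the replicate block, 3 with quality weights, 5 with voom and 0 to 8 with 1 library left out, 8 being without PA LP replicate 3. For the difference between layers they were 0, and 1 with the replicate block by mouse label. For layers under ND the count of 4 became 1 with upper quartile scaling, 0 with no filter, 2 with the filter at 6 libraries, 1 with a pseudocount of 0.1, 92 with only the libraries compared, 793 with quality weights, 0 with voom, 113 without the 2 sparsest libraries, 0 with the replicate block by mouse label and 0 to 65 with 1 library left out, the 65 being without PA LP replicate 2. For layers under PA milk the count of 18 became 8 with upper quartile scaling, 3 with no filter, 1 with only the libraries compared, 134 with quality weights, 314 without the 2 sparsest libraries, 5 with the replicate block by mouse label and 1 to 289 with 1 library left out, the 289 being without PA LP replicate 2. The cause of these moves was not tested. Same-numbered libraries did not deviate together (correlations of deviations from the group means from -0.12 to 0.07), so the numbers are not read as pairs. Leaving out 1 library of 3 assumes that the remaining 2 vary like the other groups. With 3 libraries a group no permutation p can go below 0.1, and the spread between libraries leaves the order of PA IEL and PA LP unsettled.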

Other observations

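Markers of the remaining epithelial cell types summed to less than the goblet genes in each library but PA LP replicate 1. There the stem cell markers stood at 26.6 FPKM and the goblet genes at 22.6 FPKM. Crypt stem cell markers summed to between 0.0718 and 401 FPKM in ND IEL, 4.16 and 18.9 FPKM in ND LP, 0 and 36.5 FPKM in PA IEL and 7.03 and 135 FPKM in PA LP. Enteroendocrine markers reached 262 FPKM in ND LP and 120 FPKM in ND IEL, against 38.4 FPKM in PA LP and 21.9 FPKM in PA IEL, and tuft cell markers stayed at or under 13.1 FPKM in every library. Macrophage and neutrophil markers summed to 477 to 11217 FPKM in ND LP and 442 to 3614 FPKM in PA LP, with a median log2 fold change (PA milk minus ND) of 0.71 over the 7 tested, so this list did not share the sign of the goblet genes in LP.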
